A study of Mus musculus with 2 samples.

Results

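Natural killer (NK) cell receptors outside the Ly49 group were examined in mouse spleen. The set was 10 genes, chosen by name with earlier results of these data known. It held the NKR-P1 receptors Klrb1a, Klrb1b and Klrb1c, the CD94/NKG2 receptors Klrc1, Klrc2 and Klrd1, and Klrk1, Ncr1, Klre1 and Klrg1. Of these, 9 had a probe whose accession matched the gene, out of 20649 named genes with a probe. Klrc2, which encodes the activating receptor NKG2C, had none and has no value here. Gene expression was measured on 2 one-colour Agilent arrays. One array held RNA of spleens of female mice treated with PBS, the control. The other held RNA of spleens of female mice remodelled with SiO2 (silica). Each array carried a pool of 5 spleens, taken 19 days after the first injection, so there was no replicate of either group, and no p-value or standard deviation between animals can be given. The strain, the age and the amount of silica are not given in the sources used here. The comparison asks how the remodelled spleen differs from the control spleen.

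NK cells kill infected, stressed or transformed cells, and the balance of signals from inhibitory and activating surface receptors sets whether they do. Most receptors described here are C-type lectin-like proteins encoded side by side in a cluster called the NK gene complex; Ncr1 is an immunoglobulin-like receptor encoded elsewhere. Inhibitory members carry tyrosine motifs that recruit phosphatases, while activating members have short tails and signal through partner adaptors. In the spleen NK cells lie mainly in the red pulp, and some of these receptors are also made by CD8 T cells, NKT cells and other innate lymphoid cells.

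The promoters of the members, the stretches from which their transcription starts, are shown first. RefSeq (build GRCm38.p6) gave an entry for 8 of the 10 genes, and for each the 250 bases before the annotated start were searched on both strands for short letter strings. These were TGTGGT, the core string of Runx factors, AGGTGT, a site of T-box factors such as T-bet and Eomes, and AGGAAG, a string bound by Ets factors. Capitals mark the Runx string on either strand, and no match of the other strings overlapped it in any member window. Each sequence runs 5′ to 3′ toward the start of its gene.

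Klrb1a, chr6:128622935-128623184, minus strand: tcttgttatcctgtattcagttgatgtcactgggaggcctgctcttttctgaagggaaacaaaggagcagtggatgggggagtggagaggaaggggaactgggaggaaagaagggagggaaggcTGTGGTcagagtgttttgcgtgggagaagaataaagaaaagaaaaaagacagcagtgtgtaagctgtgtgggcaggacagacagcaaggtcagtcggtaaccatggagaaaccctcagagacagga

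Klrb1c, chr6:128788642-128788891, minus strand: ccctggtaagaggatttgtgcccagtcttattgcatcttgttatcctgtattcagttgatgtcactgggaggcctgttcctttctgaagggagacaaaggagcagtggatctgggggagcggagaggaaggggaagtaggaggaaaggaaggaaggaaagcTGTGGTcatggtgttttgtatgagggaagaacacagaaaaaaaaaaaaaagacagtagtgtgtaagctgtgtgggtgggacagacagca

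Klrb1b, chr6:128826316-128826565, minus strand: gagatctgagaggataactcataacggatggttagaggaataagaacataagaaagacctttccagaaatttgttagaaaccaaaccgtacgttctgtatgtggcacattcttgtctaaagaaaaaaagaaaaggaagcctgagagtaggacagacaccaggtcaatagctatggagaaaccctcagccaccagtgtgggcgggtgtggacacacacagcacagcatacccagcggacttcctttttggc

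Klre1, chr6:129577963-129578212, plus strand: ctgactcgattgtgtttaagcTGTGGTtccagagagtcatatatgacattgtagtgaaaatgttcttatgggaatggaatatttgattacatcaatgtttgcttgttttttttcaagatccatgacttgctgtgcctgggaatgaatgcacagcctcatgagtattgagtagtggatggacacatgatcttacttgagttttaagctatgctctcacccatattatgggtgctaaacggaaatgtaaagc

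Klrk1, chr6:129623865-129624114, minus strand: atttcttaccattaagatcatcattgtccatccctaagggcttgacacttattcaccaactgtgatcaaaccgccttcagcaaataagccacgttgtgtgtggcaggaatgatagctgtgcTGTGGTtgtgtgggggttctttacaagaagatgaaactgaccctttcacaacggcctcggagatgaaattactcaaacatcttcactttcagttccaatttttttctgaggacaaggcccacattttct

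Klrc1, chr6:129678974-129679223, minus strand: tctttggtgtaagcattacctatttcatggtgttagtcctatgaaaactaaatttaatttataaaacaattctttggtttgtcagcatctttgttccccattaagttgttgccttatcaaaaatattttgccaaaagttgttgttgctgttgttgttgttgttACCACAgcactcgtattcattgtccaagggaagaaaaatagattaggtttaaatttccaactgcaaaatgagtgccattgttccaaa

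Ncr1, chr7:4337465-4337714, plus strand: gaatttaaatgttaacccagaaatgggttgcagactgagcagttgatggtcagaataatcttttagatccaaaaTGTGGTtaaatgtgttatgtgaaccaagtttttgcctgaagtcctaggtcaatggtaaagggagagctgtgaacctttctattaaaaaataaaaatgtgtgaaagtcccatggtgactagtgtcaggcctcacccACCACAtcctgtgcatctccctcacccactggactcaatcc

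The Runx string stood in the first listed window of 7 of the 8 member genes, Klrc2 included, with Klrb1b the exception. It stood in 14.2% of the first windows of all 27025 genes in the table. It was found in 9 of 14 killing effector genes with an entry, in 10 of 25 other NK surface genes, in 1 of 11 Ly49 receptor genes and in 1 of 10 T cell marker genes. Ncr1 held it at 2 places, with last bases 171 and 36 bases before the start. Klrc2, whose sequence is not printed here, also held it at 2 places in each listed window. Their last bases were 71 and 44 bases before the start in one window and 31 and 4 in the other. Klrb1a and Klrb1c, whose windows were 64.8% identical in a global alignment, each held it once, with last bases 121 and 84 bases before the start. The same comparison gave 48.8% for Klrb1a with Klrb1b and 45.7% for Klrb1c with Klrb1b. These lie within the span of member pairs not both of the NKR-P1 family, from 43.8% (Klrb1a with Klrc2) to 53.9% (Klre1 with Klrc1). Where RefSeq listed a further window, Klre1 lost the string, so that it stood in 9 of 12 windows of the members. The Ets string stood in 3 of the 8 first windows, against 29.5% of all 32817 windows, and the T-box string in 0 of 8, against 11.8%. These matches describe letters and no binding was measured. Whether they bear on the signal differences was not tested.

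All 9 measured receptors had a lower signal in the SiO2 pool than in the PBS pool, and all were above background on both arrays. In 8 of 9 the difference was at least 2-fold, in 0 it was at least 2-fold higher and in 0 at least 4-fold lower. Across all 16774 named genes above background on at least 1 array, 3.69% were at least 2-fold lower and 6.62% at least 2-fold higher. Because the set was chosen with earlier results of these data known, this contrast is a description and was not tested. The median log2 difference of the 9 receptors, SiO2 minus PBS, was -1.22 (2.33-fold lower), and the median over all genes was 0.03. The folds ran from 1.42-fold lower for Klrc1 to 3.73-fold lower for Klre1. Signals below are processed intensities before scaling. Log2 differences are taken after each array was set to its 75th percentile, which was 670 for PBS and 469 for SiO2. The error given with a difference is that of the scanner software's model for the spots, and intervals are its 95% limits. In bright genes this error was 0.204 almost whatever the signal, as for Klrd1 and H2-T23. The measured log2 SD among repeated spots of 1 array was smaller, with a median of 0.059 (PBS) and 0.063 (SiO2). The model error covers the spot and not the animals, the pooling or the labelling. In a pool of whole tissue, fewer cells of a type and less RNA per cell cannot be told apart.

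**Figure D1:**
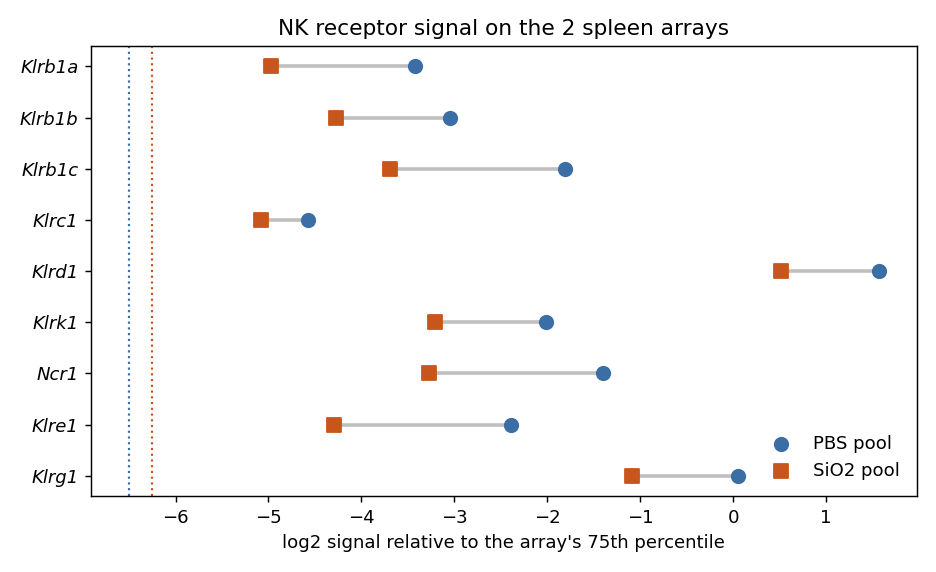
Scaled log2 signal of each measured receptor (0 is the array's 75th percentile) in the PBS pool (circles) and the SiO2 pool (squares), 1 array each with no replicates. Dotted lines mark the lowest signal well above background on each array; each of the 9 receptors lies above it on both, and each square lies to the left of its circle.

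The NKR-P1 family binds C-type lectin-like ligands of the Clec2 family. Klrb1c, the activating receptor that carries the NK1.1 epitope in some mouse strains, had a signal of 191 in the PBS pool and 36.3 in the SiO2 pool. Its log2 difference was -1.88 (error 0.21), or 3.69-fold lower. A dimmer Klrb1c probe, at 48.1 and 13.6, gave -1.31 (error 0.26), so both probes were at least 2-fold lower. Klrb1a, an activating receptor of the same family, had 62.4 in PBS and 15.0 in SiO2, a log2 difference of -1.55 (error 0.24). Klrb1b, the inhibitory member, had 80.8 and 24.3, a log2 difference of -1.22 (error 0.22). Its 2 other probes were close to background, at 22.4 and 10.02 for one, with a difference of -0.65, and at 13.7 and 3.56 for the other, with a difference of -1.43 where the SiO2 spot was not well above background. Klrb1a, Klrb1b and Klrb1c thus lay lower by each of their 6 probes, and the mean over the probes of Klrb1b was within 2-fold, at -0.84. Klrb1 (-0.95) and Klrb1f (-0.66), which are not among the 10 genes, were lower too and within 2-fold. Probe sequences were not used here, so reads of near-identical family members by one probe were not tested.

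CD94, encoded by Klrd1, pairs with NKG2 proteins and the pair reads the peptide-loaded class Ib molecule Qa-1. Klrd1 had 1986 in PBS and 670 in SiO2, a log2 difference of -1.06 (error 0.20), or 2.08-fold lower. Klrc1, which encodes the inhibitory partner NKG2A, was dim on both arrays, at 28.1 and 13.9. Its log2 difference of -0.50 (error 0.25; interval -0.998 to -0.0074) was the only one of the 9 within 2-fold. Klrc3, the related partner NKG2E, which is not among the 10 genes, was at 90.04 and 28.4, or 2.22-fold lower. The ligand gene of the CD94 pairs, H2-T23, was bright on both arrays at 17585 and 9251, with a log2 difference of -0.41.

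Klrk1 and Ncr1 are activating receptors. Klrk1 encodes NKG2D, which detects stress-induced ligands and which activated CD8 T cells also carry. Its signal was 166 in PBS and 50.7 in SiO2, a log2 difference of -1.20 (error 0.21), or 2.29-fold lower. Ncr1 encodes NKp46, a receptor largely restricted to NK cells and related innate lymphoid cells. It had 253 in PBS and 48.4 in SiO2, a log2 difference of -1.87 (error 0.21), or 3.66-fold lower.

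Klre1 and Klrg1 complete the set. Klre1 has no signalling motif of its own and pairs with Klri1, which is inhibitory, or Klri2, which is activating. Klre1 had 127 in PBS and 23.9 in SiO2, a log2 difference of -1.90 (error 0.22), the lowest of the 9. Its partners were lower too, Klri1 at 25.4 and 8.84 (2.01-fold) and Klri2 at 167 and 43.7 (2.67-fold). Klrg1, an inhibitory receptor of mature NK cells and of effector CD8 T cells that binds cadherins, had 693 in PBS and 221 in SiO2, a log2 difference of -1.13 (error 0.20), or 2.19-fold lower.

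The order from the lowest difference was Klre1, Klrb1c, Ncr1, Klrb1a, Klrb1b, Klrk1, Klrg1, Klrd1 and Klrc1. No neighbouring pair in this order, of 8, was separated by more than the 95% interval of the software's model error, while 18 of all 36 pairs were. Klre1, Klrb1c and Ncr1 were each separated in this way from Klrb1b, Klrk1, Klrg1, Klrd1 and Klrc1. The interval of Klre1, Klrb1c, Ncr1 and Klrb1a lay wholly below a log2 difference of -1. That of Klrb1b (-1.65 to -0.79), Klrk1 (-1.60 to -0.79), Klrg1 (-1.53 to -0.73) and Klrd1 (-1.46 to -0.66) contained it. For these 4 the software's model error alone spans both sides of 2-fold. Intervals from the spread of repeated spots were not computed. The interval of each of the 9 lay below 0.

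Background correction changed the size of these differences for the dim receptors. Under normexp with an offset of 50 added to every spot, Klrd1 (-1.01) and Ncr1 (-1.17) remained at least 2-fold lower, Klrb1a and Klrb1b were each at -0.33, Klrb1c at -0.89, Klre1 at -0.62, Klrk1 at -0.66 and Klrg1 at -0.97, and Klrc1 turned to 0.21. The median of all genes was then 0.18, and the median of the receptors lay 0.84 below it, compared with 1.25 below it in the main setting. With an offset of 10, chosen after seeing the data, 6 of 9 receptors were at least 2-fold lower and Klrc1 was at -0.03. Scaling bore on the count as well. When the median over 27 B and T cell markers was moved to 0 by a constant added to the SiO2 array, 4 receptors were at least 2-fold lower, namely Klre1, Klrb1c, Ncr1 and Klrb1a. At least 2-fold lower were 3.69% of all genes in the main setting and 1.63% after that shift. The share was 1.54% under normexp with an offset of 50 and 2.22% with an offset of 10. Among only the genes past 2-fold in either direction, 35.8% were lower in the main setting and 10.6% after the B and T cell shift.

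**Figure D2:**
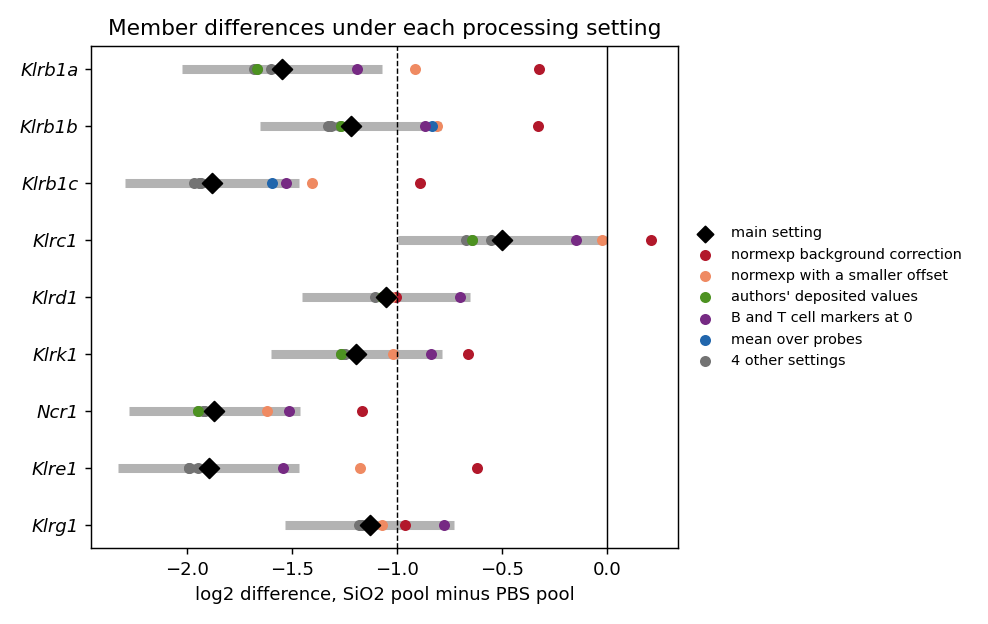
Log2 difference of each receptor, SiO2 pool minus PBS pool, under the main setting (diamond, with the 95% interval of the software's model error as a grey bar) and under each alternative (circles). The dashed line marks 2-fold lower. Klrd1 moves from -1.06 to -1.01 under normexp, whereas Klrb1a moves from -1.55 to -0.33 and Klrc1 crosses 0.

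The adaptors that carry the signals of the activating receptors were within 2-fold. Of 4 measured, 0 were at least 2-fold apart, with a median log2 difference of -0.39. Tyrobp, the adaptor DAP12, was at 7077 in PBS and 3271 in SiO2 (log2 difference -0.60), and Hcst, the adaptor DAP10 of NKG2D, at 2587 and 1446 (-0.33). Fcer1g, a signalling chain used by Ncr1 and Klrb1c, was at -0.45, and Cd247, the CD3 zeta chain, at 0.12 with dim signals of 23.2 and 17.7. Tyrobp and Fcer1g are also made by myeloid cells. Among 22 downstream signalling genes 0 fell past 2-fold and 1 was higher, the kinase subunit Pik3r1 at 2.28-fold; their median was -0.47.

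Among ligands of the receptors, 10 of 19 listed genes were measured. Past 2-fold, 2 were lower and 0 higher, and the median log2 difference was -0.56. Clec2d, the ligand Clr-b of Klrb1b, went from 1093 in PBS to 268 in SiO2, or 2.86-fold lower. Cdh1, the E-cadherin bound by Klrg1, went from 95.6 to 31.9, or 2.10-fold lower, while Cdh2, the N-cadherin, was at -0.09 on the log2 scale. Of the ligands of NKG2D, Raet1e was at -0.51 and Ulbp1 at 0.06. H60b was above background in the PBS pool only, at 13.5, and at least 1.55-fold lower, which is a bound set by the lowest signal above background on the SiO2 array. Clec2e, at 29.5 and 29.8, was higher by 0.53 on the log2 scale after scaling. Under normexp the median of the ligands was 0.05.

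Genes that build and sustain NK cells were lower in part. Of 18 transcription factors measured, 2 were lower past 2-fold and 0 higher, and their median was -0.37. Eomes, which drives NK cell maturation, was 2.42-fold lower (407 in PBS and 118 in SiO2) and Id2, which innate lymphoid cells require, 2.07-fold lower. Tbx21, which encodes T-bet, was at -0.93 and Runx3 at -0.62 on the log2 scale, both within 2-fold, and Zeb2 lay near the median at -0.39. Of 14 cytokine genes and receptors, 4 were lower past 2-fold and 0 higher; the median was -0.45, with Il2rg at -0.47. These were Il18 (2.32-fold) and Il12a (2.08-fold), which encode cytokines that activate NK cells, Il2rb (2.05-fold), the receptor chain for IL-2 and IL-15, and Il15 (2.01-fold), the cytokine NK cells need to survive. With B and T cell markers set to a median of 0, 0 of the transcription factors and 0 of the cytokine genes were at least 2-fold lower.

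The measured receptors were set beside the Ly49 receptors and the killing effectors, the gene groups closest to them. Of 10 Ly49 receptors measured, 8 were at least 2-fold lower, with a median of -1.95 and a range from -2.40 for Klra5 to -0.56 for Klra1. The 9 receptors described here ranged from -1.90 to -0.50, so the ranges overlapped, and 5 Ly49 genes lay below the lowest of the 9. Besides Klra5 these were Klra4 (-2.34), Klra6 (-2.22), Klra7 (-2.12) and Klra2 (-2.01). Of 17 killing effectors, 4 were at least 2-fold lower, with a median of -0.70. The protease Gzma was 6.15-fold lower, Gzmb 4.17-fold, the chemokine Xcl1 2.53-fold and the death ligand Fasl 2.15-fold, while Prf1, the pore protein perforin, was at 0.01 on the log2 scale. Other genes listed for the NK cell surface numbered 32, of which 7 were lower past 2-fold and 1 higher (median -0.45). Of all genes, 3.69% were at least 2-fold lower and 6.62% at least 2-fold higher. Fcgr4, an Fc receptor of myeloid cells, was 3.00-fold lower and the death ligand Tnfsf10 2.99-fold lower, whereas Cd59a, a complement regulator, was 4.47-fold higher. Fcgr3, another Fc receptor on the list, was at 0.32 on the log2 scale. Among others within 2-fold were Cd244a (-0.01), Itga2 (-0.08), Cd27 (0.19), Cd96 (0.23) and Itgam (0.59), while 25 of the 32 lay below 0. Under normexp the Ly49 count was 5 with a median of -1.15, the effector count 2 with a median of -0.55, and the count of other surface genes 3, beside a median of -0.66 for the receptors. The effector count was also 2 with B and T cell markers at 0. With 1 array a group, none of these differences between groups of genes could be tested.

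**Figure D3:**
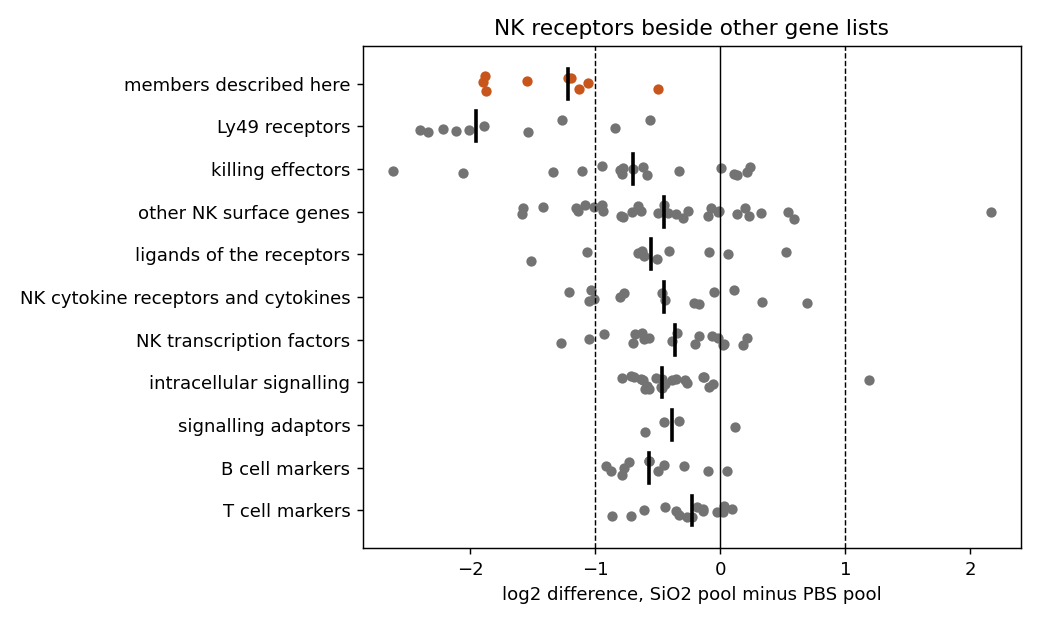
Log2 difference, SiO2 pool minus PBS pool, of each measured gene of the lists, with the list median as a black bar; the receptors described here are the top row. Dashed lines mark 2-fold lower and higher. The receptors (median -1.22) and the Ly49 receptors (median -1.95) lie further to the left than T cell markers (median -0.23) and signalling adaptors (median -0.39).

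Markers of other lymphocytes were read on the same arrays. All 15 T cell markers were above background on both arrays and 0 were 2-fold apart. Their summed scaled signal was 40.5 in PBS and 30.2 in SiO2, and their median was -0.23. Cd3e was at -0.33, Cd4 at 0.09, Cd8a at -0.87 and Cd8b1, the other chain of CD8, at -0.03. All 12 B cell markers were above background and 0 were 2-fold apart, with a median of -0.57, a summed scaled signal of 130 in PBS and 89.2 in SiO2, and Ms4a1 at -0.45. NK cell markers, a list that shares Ncr1, Klrb1c and Klrd1 with the set, had 9 of 9 above background, 6 at least 2-fold lower and a summed scaled signal of 22.5 in PBS and 7.57 in SiO2. The shared genes were among these 6, and the rest were Gzma, Eomes and Il2rb. Outside the set, Tbx21 (-0.93), Nkg7 (-0.58) and Prf1 (0.01) were within 2-fold. Without Gzma the summed signal of the list was 10.9 in PBS and 5.69 in SiO2. For the whole list, Gzma included, the count at least 2-fold lower was 3 under normexp as well as with B and T cell markers at 0. Helper innate lymphoid cell markers, a list that also holds Ncr1, had 10 of 12 measured and a median of -0.0033, which ran from -0.39 in the deposited values to 0.35 with B and T cell markers at 0, with Il7r at 0.06, Zbtb16 2.03-fold lower and Il1rl1, the receptor for IL-33, 2.68-fold higher. Their summed scaled signal was 4.33 in PBS and 6.53 in SiO2, and without Il1rl1 it was 2.59 and 1.85. Il5 and Il13 were not well above background in the SiO2 pool, so their values are bounds. Il5, at -0.07, is next to the middle of the list and helps to set its median. Of the helper list, 2 genes were at least 2-fold lower in the main setting. With no filter and no floor 4 were, and the list median was -0.36. In the SiO2 pool, 11 of 13 erythroid markers and 8 of 10 neutrophil markers were at least 2-fold higher. The erythroid markers had a summed scaled signal of 121 in PBS and 256 in SiO2, the neutrophil markers 85.6 and 197. All 7 spleen tissue markers were above background on both arrays and all were lower in the SiO2 pool, with a median of -0.57 and a summed scaled signal of 45.5 in PBS and 22.9 in SiO2. Past 2-fold, 3 were lower: Spic, a transcription factor of red pulp macrophages (-1.49), Cxcl13, a chemokine of the B cell follicle (-1.26), and Cd5l, a macrophage protein (-1.22). The stromal factors Nkx2-3 and Tlx1 were at -0.50 and -0.29. The part of these other cell types in the lower receptor values was not tested.

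The position of the genes was then used to see what lies between the receptors. In the order of the RefSeq gene table, the interval of chromosome 6 from Klrb1a to the last Ly49 gene holds 7 of the 9 measured receptors; Klrg1 lies elsewhere on chromosome 6 and Ncr1 on chromosome 7. This interval was chosen after the receptor values were seen. Of 92 genes in it, 35 were measured, 20 of them at least 2-fold lower and 1 higher. The receptor genes made up most of the lower ones: 6 of the 7 members, 8 of 10 Ly49 genes and 3 of 5 other Klr genes. Of 4 Clec2 genes 1 was lower, and of 9 further genes 2 were lower and 1 higher. Those were Clec9a, a receptor of cross-presenting dendritic cells (log2 difference -2.39), the lectin-like gene BC035044 (-1.13) and Olr1, a receptor for oxidised lipoprotein (1.59). These 3 lie between Klrb1b and Klre1, as does Clec2d (-1.52). The same stretch holds genes within 2-fold, among them the activation marker Cd69 (-0.09), the platelet receptor Clec1b (-0.56) and the autophagy gene Gabarapl1 (-0.17).

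**Figure D4:**
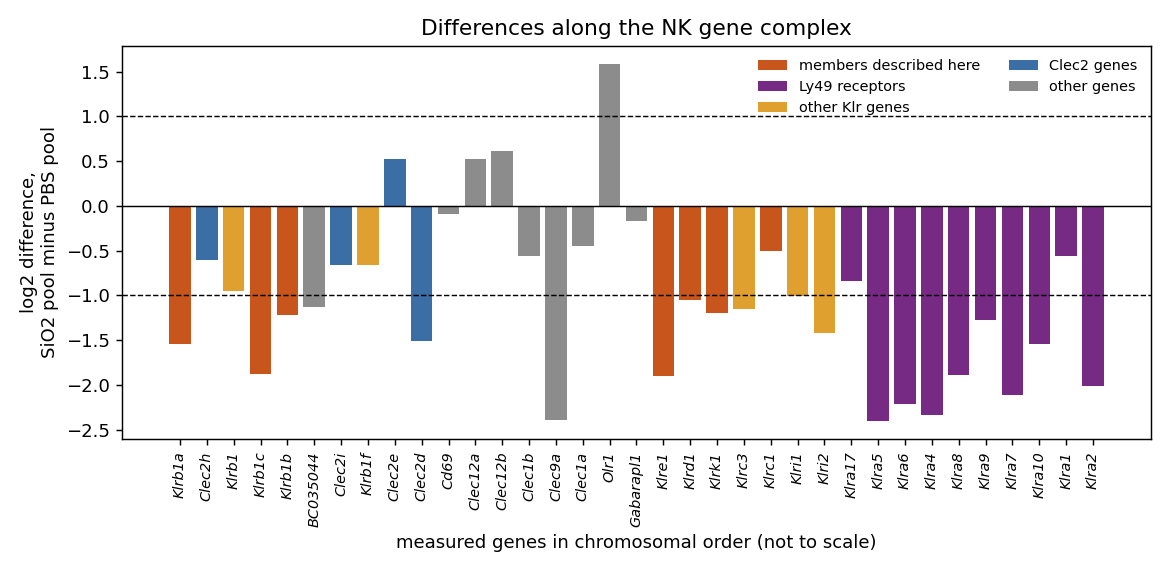
Log2 difference, SiO2 pool minus PBS pool, of the 35 measured genes from Klrb1a to the last Ly49 gene, in chromosomal order and not to scale, coloured by kind of gene. Dashed lines mark 2-fold. Receptor genes reach below -1 on both sides of a stretch of mixed genes, in which Clec9a is at -2.39, Clec2d at -1.52, Cd69 at -0.09 and Olr1 at 1.59.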

How the data were processed

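RNA was purified with a blood kit that lyses red cells apart from white cells, depleted of globin transcripts and labelled with Cy3, per the labels' protocols. The deposited scanner files hold spot intensity, background-subtracted per the file headers by Agilent Feature Extraction 11.0.1.1; the submitters' processing notes name version 9.1. The series matrix deposited by the authors is on the log2 scale (26049 probes, medians 5.68 in both columns). Set against scanner log2 values its slope was 0.994 for PBS and 1.01 for SiO2, so its scale and sign are known. Its differences matched those of quantile normalization with a median gap of 0.00051, with a largest gap of 0.61; no source used here names the method.

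Of 43020 gene spots an array, 145 (PBS) and 148 (SiO2) were dropped as outliers; 0 were saturated, and 75.5% and 74.9% were well above background. Log2 intensity minus the 75th percentile of each array was compared, by the brightest probe above background on at least 1 array. A dim value under the lowest signal above background (7.37 and 6.14) was raised to it. Of 39398 probes, 27217 (69.1%) matched 1 symbol through RefSeq accessions. The log2 SD among repeated spots had a median of 0.059 (PBS) and 0.063 (SiO2) over 305 probes. Per the file headers, the software also deposited an error with each intensity, which gives the intervals here. Genes named beside the 10 members were up to 5 per list and direction past 2-fold, the one nearest each list median, and defining lymphocyte genes; a few others (receptor partners, ligands, neighbours) were named after their values were seen, and the erythroid and neutrophil lists were added then. Members and lists were chosen with earlier results of these data known. Alternatives were normexp (limma 3.58.1, R 4.3.3; on median spot signals, as mean signals are not used here), median, quantile and cyclic loess scaling, no filter, the mean over probes, the deposited log2 values, and a B and T cell marker shift. The counting step was tested on simulated data. Changes were placed only in genes well clear of the lowest signal above background, so changes in dim genes were not covered. Some genes that the naming rule takes are left out of the text.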

Additional observations from a re-analysis of the deposited data

How the results depend on the processing

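All 9 receptors stayed below 0 under median scaling, quantile normalization, cyclic loess, no filter, the mean over probes, the smaller normexp offset and the B and T cell shift, and all 6 with a value did in the authors' deposited values. Under normexp with the larger offset 8 did, and Klrc1 turned to 0.21. The count of receptors at least 2-fold lower was 8 in the main setting, where 3.69% of all genes were. It was 7 with the mean over probes (3.35% of all genes) and 6 with the smaller normexp offset (2.22%). Under normexp with the larger offset it was 2 (1.54%), and with B and T cell markers at 0 it was 4 (1.63%). In the deposited values it was 5 of the 6 with a value (4.71%), and Klrb1c, Klre1 and Klrg1 had none. The median log2 difference of the receptors was -0.66 under normexp with the larger offset and -0.87 with B and T cell markers at 0. Under the other settings it lay between -1.33 and -1.03. The normexp offset is added to both arrays, which by construction pulls dim spots together. Of all genes, 619 were at least 2-fold lower and 1110 higher in the main setting, 259 and 655 under normexp, 373 and 862 with the smaller offset, and 273 and 2291 after the B and T cell shift, which moved the median of all genes to 0.38. No paired analysis was possible because each group has 1 array. For the same reason no array could be left out. The authors' deposited differences are close to those of quantile normalization, with a median gap of 0.00051 on the log2 scale over 18739 probes. Low signal limits the dim spots, where normexp moved Klre1 from -1.90 to -0.62, Klrb1a from -1.55 to -0.33 and Klrb1c from -1.88 to -0.89.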
